A study of Mus musculus with 25 samples.

Results

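Keratin genes were examined in the all-RNA-seq data of mouse sperm taken from the cauda epididymis. The members were all gene symbols of the deposited table that consist of Krt, a number and at most 1 further letter, without the keratin-associated proteins. This gave 52 keratins of 24358 genes, and each had a usable estimate in all 5 conditions. They were divided by where each keratin is known to be made into 5 simple epithelial, 3 basal, 11 suprabasal skin and mucosa, 6 activation and appendage, 8 inner root sheath, 15 hair shaft and 4 other keratins. The suprabasal, activation, inner root sheath and hair shaft classes together are called hair or skin keratins here and hold 40 genes.

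Each condition had 5 males aged 14 weeks. C57.CTL.F1 were C57BL/6J sons of mothers given corn oil, and C57.D300.F1 were C57BL/6J sons of mothers given 300 mg/kg/day of the plasticizer DEHP, bis(2-ethylhexyl)phthalate, by mouth from embryonic day 9 to 19. FVB.CTL.F1 and FVB.D300.F1 were the same in the strain FVB/N. C57.D300.F2 were sons of prenatally exposed C57BL/6J males and unexposed females, and were not dosed themselves. There was no second-generation vehicle condition. The questions were whether prenatal DEHP altered sperm RNA, whether both strains responded alike, and whether the second generation differed from the first. The labels mark both first-generation C57BL/6J conditions, 10 libraries, as re-analysed, and the other 15 libraries not. A contrast between strains or between generations therefore cannot be told apart from one between these library sets, whereas each contrast of DEHP with vehicle stayed within a set.

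Keratins are the intermediate filament proteins of epithelial cells. A filament is built from pairs of an acidic type I chain and a basic type II chain, so a cell that makes filaments makes members of both types. Krt8 and Krt18, with Krt19 and Krt7, are typical of single-layered duct and gland linings, Krt5 and Krt14 of the basal cells under stratified or pseudostratified linings, and the remaining genes mainly of epidermis, mucosa, hair and nail. The duct of the epididymis is lined by tall principal cells with basal cells below them.

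The deposited value is 1 estimated count per gene and condition, which pools the 5 libraries, so no difference could be tested against the spread between animals and no p-value is given. A gene was called when its ratio between the compared conditions, after adding 1 to each count, was at least 2 log2 units and at least 1 of these conditions had 10 counts. The errors given are SDs under the authors' count model (model SD) and not SDs between mice. Total counts per condition were between 6921688 and 8602900. The labelled cell type was present, since Prm1, Prm2 and Odf1, which serve in sperm chromatin and the sperm tail, were found in all conditions. Prm2 had 20903 counts in C57BL/6J after vehicle, 12610.3 after DEHP and 6651 in the second generation, but 1584 and 2019 in vehicle and exposed FVB/N. The 12 germ cell genes listed summed to 93238 counts in C57.CTL.F1 and to 8099.7 in FVB.CTL.F1. RNAs typical of other tissues also differed strongly, with 9 seminal vesicle genes summing to 238781 counts in C57.CTL.F1 and between 1147 and 2527 elsewhere, 12 liver genes to 199011 and 184477 counts in the re-analysed conditions and between 1879 and 5378 in the others, and 13 epididymal genes to 42809 counts in FVB.D300.F1 and between 2025 and 2346 elsewhere.

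Keratins made up a small part of the RNA, and simple epithelial keratins made up most of the keratin RNA. In C57BL/6J, the 52 genes summed to 8354 counts after vehicle (C57.CTL.F1), 6272 after DEHP (C57.D300.F1) and 8184 a generation later (C57.D300.F2), and in FVB/N to 11569.8 after vehicle (FVB.CTL.F1) and 8865 after DEHP (FVB.D300.F1). These sums were 0.0971%, 0.0809%, 0.118%, 0.153% and 0.107% of all counts. Simple epithelial keratins held 93.1%, 92.3%, 90.9%, 90.6% and 88.2% of the keratin counts in the same order. Basal keratins held 4.22%, 3.96%, 4.49%, 5.46% and 8.27%, so their share was highest in FVB.D300.F1. In such bulk samples, fewer cells of a type and less RNA per cell cannot be told apart.

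Only 7 keratins, namely Krt18, Krt19, Krt8, Krt7, Krt15, Krt5 and Krt4, reached 100 counts in any condition. In all, 17 of 52 reached 10 counts in at least 1 condition. They comprised all 5 simple and all 3 basal keratins but 4 of 11 suprabasal, 1 of 6 activation, 0 of 8 inner root sheath, 2 of 15 hair shaft and 2 of 4 other keratins. In single conditions, 11 to 16 keratins reached 10 counts, or 21.2% to 30.8% of them, against 65.3% to 68.3% of all genes.

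**Figure D1:**
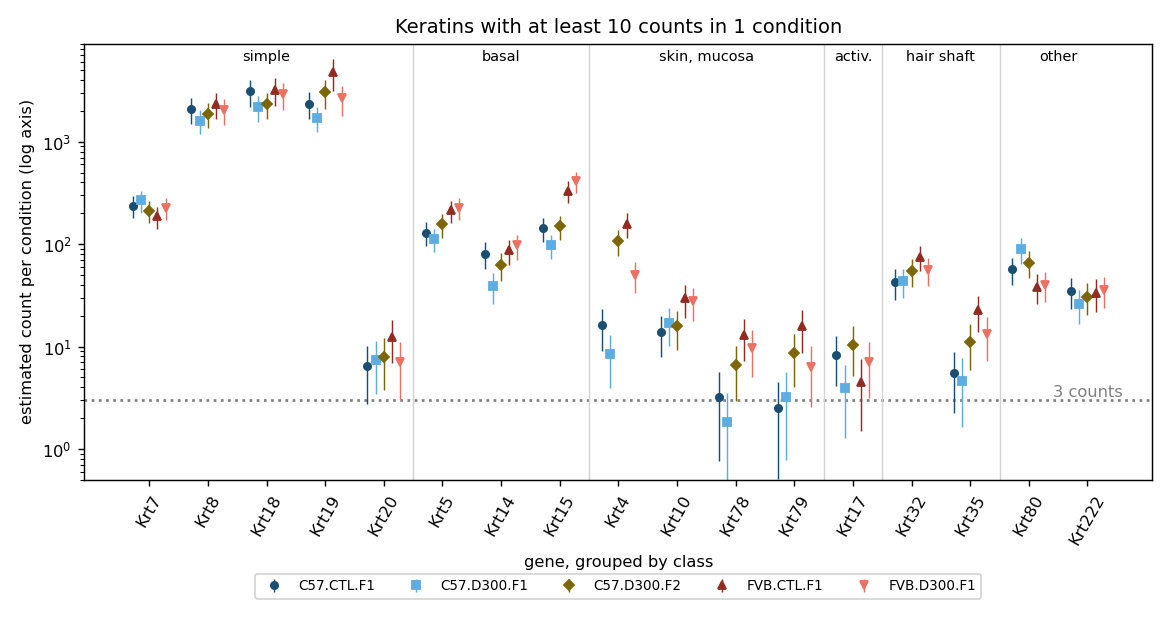
Estimated count on a log axis for the 17 keratins with at least 10 counts in 1 condition, grouped by class, with 1 point per condition and bars of 1 model SD. Krt8, Krt18 and Krt19 lie at 1608 counts or more everywhere, the 3 basal keratins between 39.0 and 411, and Krt4 ranges from 8.38 to 156; the dotted line marks 3 counts.

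The simple epithelial pair Krt8 (type II) and Krt18 (type I) was abundant and even across the 5 conditions. Krt18 had 3116, 2184, 2319.7, 3189.6 and 2905 counts, in the order of conditions just used for the sums (C57BL/6J vehicle, DEHP and second generation, then FVB/N vehicle and DEHP), and all later series of 5 values follow it. Krt8 had 2073, 1608, 1859, 2334 and 2031 counts. Both were lowest in C57.D300.F1 and highest in FVB.CTL.F1, but the highest value was only 1.46 times the lowest for Krt18 and 1.45 times for Krt8, below the median of 1.83 over 17023 genes with more than 3 counts in every condition. Even the step of Krt18 from C57.CTL.F1 to C57.D300.F1, 932 counts, was smaller than its model SD of 1124 counts.

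Krt19, a type I simple keratin without the usual tail domain, varied more than its relatives. It had 2346, 1723, 3044, 4764 and 2647 counts, a range of 2.77-fold. FVB.CTL.F1 stood highest, and C57.D300.F1 again lowest. Krt7, the second type II simple keratin and common in ducts, had 237, 267, 212, 187 and 227 counts, with C57.D300.F1 highest and FVB.CTL.F1 lowest. The range of Krt7 was only 1.42-fold, and in no contrast was its difference larger than the model SD. Krt20, known from intestine and urothelium, stayed near the detection range with 6.49, 7.33, 7.85, 12.4 and 7.09 counts.

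Per kilobase of exon, which allows levels of different genes to be compared, Krt18 led with a mean of 1909 counts per kb over the 5 conditions, followed by Krt19 with 1566 and Krt8 with 1012. Krt18 stood between the percentiles 98.7 and 99.2 of 23212 genes with a length in every condition. The next keratin was the basal Krt15 with 128 counts per kb, and then Krt5 with 76.2, Krt14 with 41.6, Krt7 with 32.1, Krt4 with 31.7 and the hair keratin Krt32 with 31.6. Krt7 stood low per length because its annotated exons span 7049 bases, and with the longest transcript as length it had 55.2 counts per kb.

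Krt8 (chr15, minus strand) and Krt18 (chr15, plus strand) lie side by side and are read away from each other, although Krt18 is type I and all other type I keratins of the table with a position are on chromosome 11. The sequence just before each gene is shown for this pair, for the neighbours Krt79 and Krt78, and for Krt32, the most abundant hair keratin. Krt79 and Krt78 reached 10 counts in FVB.CTL.F1 alone. Sequences are from RefSeq (GRCm38.p6, the mm10 build), 5′ to 3′ on the gene's strand, with bases inside the annotated gene left out and TATAAA matches in capitals. The windows are chr15:102004483-102004592 (minus strand) for Krt8, chr15:102027966-102028179 (plus) for Krt18, chr15:101940325-101940574 (minus) for Krt79, chr15:101954288-101954537 (minus) for Krt78 and chr11:100088270-100088519 (minus) for Krt32.
Krt8: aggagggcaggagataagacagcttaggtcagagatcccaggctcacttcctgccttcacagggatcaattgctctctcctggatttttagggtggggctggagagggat
Krt18: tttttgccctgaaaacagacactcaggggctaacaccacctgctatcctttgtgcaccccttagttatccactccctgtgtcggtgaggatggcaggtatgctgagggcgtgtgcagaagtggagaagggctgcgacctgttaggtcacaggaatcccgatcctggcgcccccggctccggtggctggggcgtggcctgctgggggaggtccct
Krt79: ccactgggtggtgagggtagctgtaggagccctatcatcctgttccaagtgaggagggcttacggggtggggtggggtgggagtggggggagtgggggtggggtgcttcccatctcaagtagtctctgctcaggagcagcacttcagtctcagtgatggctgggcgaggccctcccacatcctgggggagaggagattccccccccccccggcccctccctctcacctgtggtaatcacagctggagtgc
Krt78: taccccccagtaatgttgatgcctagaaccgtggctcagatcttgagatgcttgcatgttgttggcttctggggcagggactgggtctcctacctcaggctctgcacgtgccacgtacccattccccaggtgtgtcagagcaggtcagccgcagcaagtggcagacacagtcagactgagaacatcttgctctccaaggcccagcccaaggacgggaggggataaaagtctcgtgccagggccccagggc
Krt32: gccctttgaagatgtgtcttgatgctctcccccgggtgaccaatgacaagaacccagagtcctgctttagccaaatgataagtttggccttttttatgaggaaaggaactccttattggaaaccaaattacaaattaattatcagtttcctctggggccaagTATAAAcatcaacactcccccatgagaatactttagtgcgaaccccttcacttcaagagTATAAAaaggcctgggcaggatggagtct

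Promoters of 10 of the 17 keratins with 10 counts were found in the RefSeq table, which holds 250 bases before the RefSeq start of each gene. The gene annotation used for lengths has longer models for some keratins, so that the windows of Krt7 and Krt14 lie wholly inside the annotated gene, and 36 bases of that of Krt18 and 140 of that of Krt8 do. TATAAA, searched on both strands, was in 3 of 10, namely Krt10, Krt20 and Krt32, and in 12.4% of 32851 promoters. GGGCGG was in the window of Krt7 alone, with 4 matches, and in 32.7% of all promoters. TGANTCA was in 0 of 10 and in 6.75% of all promoters. The 250 bases before the RefSeq start of Krt18 held 60.4% G and C with 12 CpG and those before Krt32 43.6% with 2, beside a median of 52.4% over all promoters. These are descriptions of letters in a window, and whether any of them is used was not measured.

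Basal keratins were higher in both FVB/N conditions than in the 3 C57BL/6J conditions. Krt15, a type I keratin of basal cells and of the hair bulge, had 143, 97.2, 149, 331 and 411 counts. Krt5, the type II basal keratin, had 129, 112, 156, 214 and 225 counts, and the values of both FVB/N conditions lay above all C57BL/6J values for both genes. Krt14, the type I partner of Krt5, had 80.2, 39.0, 62.3, 86.8 and 97.1 counts, and here C57.CTL.F1 came within 1 model SD (23.9 counts) of FVB.CTL.F1. The highest value over the lowest was 4.23 for Krt15, 2.49 for Krt14 and 2.00 for Krt5. For all 3 the highest condition was FVB.D300.F1 and the lowest C57.D300.F1.

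Krt4, the type II keratin of internal stratified mucosa, varied most. It had 16.2 ± 7.2, 8.38 ± 4.5, 107 ± 30.7, 156 ± 42.8 and 50.0 ± 17.0 counts (± model SD). The 2 re-analysed C57BL/6J conditions were low, and the 3 others were at least 50.0. Its range of 18.7-fold stood at the 97.9th percentile of genes with more than 3 counts throughout, and its per-length percentile among all genes went from 30.5 in C57.D300.F1 to 81.5 in FVB.CTL.F1.

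Krt4 is followed on chromosome 15 by Krt79, known from the infundibulum of the hair follicle, and Krt78, both type II and on the same strand. Krt79 had 2.52, 3.23, 8.62, 15.8 and 6.30 counts, and Krt78 had 3.21, 1.82, 6.53, 12.9 and 9.77. All 3 neighbours were highest in FVB.CTL.F1 and lower in both re-analysed conditions than in the other 3. Krt8 and Krt18, the next keratins along the chromosome, did not share this order. Krt79 and Krt78 reached 10 counts in FVB.CTL.F1 alone, so the place of their highest value followed from the filter. Their other values were all under 10 counts, so whether the 3 neighbours vary together was not tested. Krt4 lies at positions 101918535 to 101924735, Krt79 at 101929332 to 101940324 and Krt78 at 101946001 to 101954287, and Krt8 begins at 101996698.

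**Figure D2:**
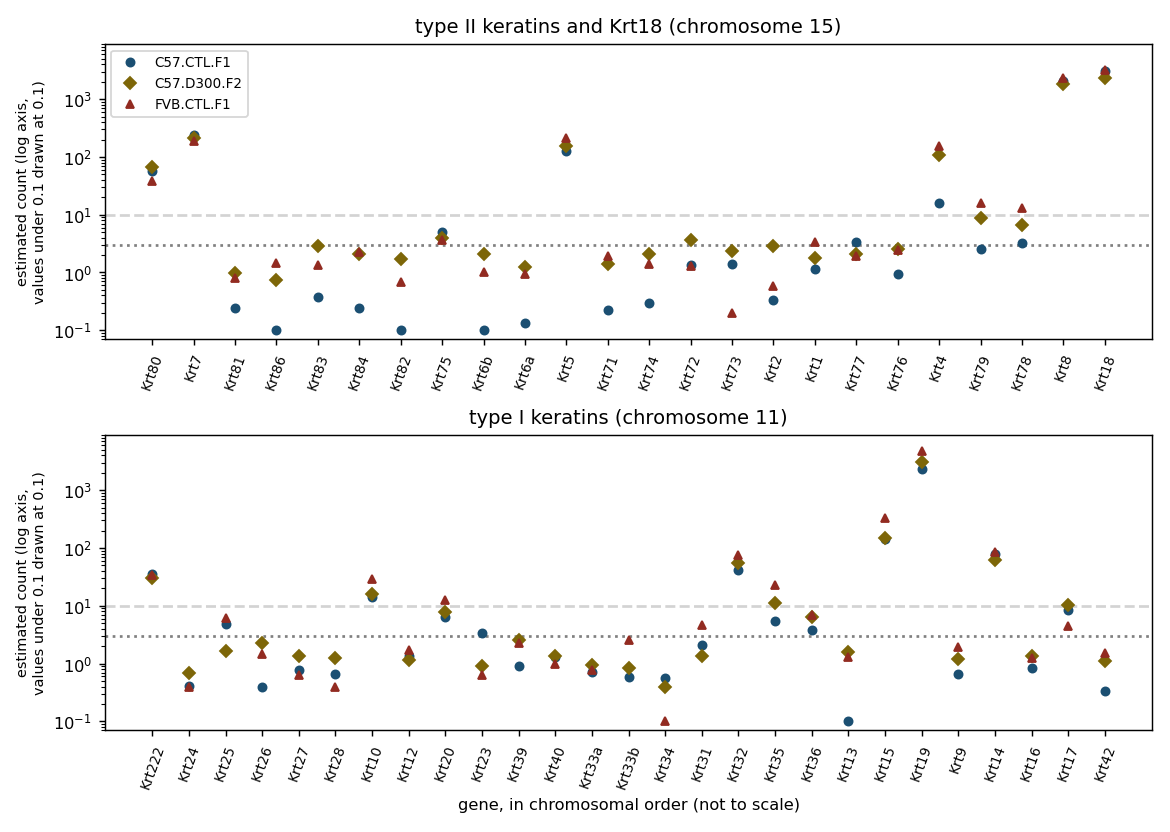
Estimated counts on a log axis of the keratins in their order along chromosome 15 (upper panel) and chromosome 11 (lower panel), spaced evenly, for 3 conditions (C57BL/6J vehicle, C57BL/6J second generation, FVB/N vehicle). Most genes lie under the dashed line at 10 counts, and C57.CTL.F1 is the lowest of the 3 conditions for the neighbours Krt4, Krt79 and Krt78. Krt79 and Krt78 reach 10 counts in FVB.CTL.F1 alone. The dotted line marks 3 counts.

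Of the epidermal suprabasal keratins, Krt10 (type I) had 14.0, 16.9, 15.9, 29.6 and 27.6 counts, and was higher in both FVB/N conditions than elsewhere. Its partner Krt1 had at most 3.33 counts in any condition. Krt17, a type I keratin of skin appendages and injured epithelium, had 8.33, 3.93, 10.5, 4.49 and 7.13 counts.

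The hair keratins Krt32 and Krt35, both type I and neighbours on chromosome 11, were the hair shaft keratins that reached 10 counts. Krt32 had 42.5, 43.7, 54.3, 75.4 and 55.6 counts. Krt35 had 5.55, 4.65, 11.2, 22.6 and 13.2 counts, and as with Krt32 both re-analysed conditions were the lowest and FVB.CTL.F1 the highest. The type II hair keratin Krt85 had at most 1.53 counts anywhere. Among the other keratins, Krt80 (type II) had 56.6, 88.9, 66.0, 38.4 and 40.3 counts and shared with Krt7, near it on chromosome 15, the highest value in C57.D300.F1 and the lowest in FVB.CTL.F1. The values of Krt7 spanned only 1.42-fold. Krt222 was the most even of all, with 35.2, 26.1, 30.7, 33.6 and 35.6 counts.

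The remaining 35 keratins stayed under 10 counts in every condition, and 25 of them at or under 3, the upper limit that a count of 0 allows for counting error alone. They summed to 39.5, 36.7, 63.5, 61.3 and 69.3 counts with medians of 0.672, 0.733, 1.38, 1.37 and 1.88, so that both re-analysed conditions were the lowest. The highest single values were 6.99 for Krt36 in FVB.CTL.F1 and 6.45 for Krt25 in FVB.D300.F1, 2 genes singled out after their values were seen. The 25 genes were not detectable at this depth, which does not show that they are absent. Of the 17 keratins with 10 counts in at least 1 condition, 11 had their lowest value in C57.D300.F1 and 10 their highest in FVB.CTL.F1, beside 19.4% and 16.1% of 17701 genes with 10 counts in any condition. Krt20, Krt78 and Krt79 reached 10 counts in FVB.CTL.F1 alone, so the place of their highest value followed from the filter.

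In C57BL/6J, prenatal DEHP went with somewhat lower simple and basal keratins, but no keratin was called. With 12 keratins at the minimum, 0 were higher by 2 log2 units and 0 lower, beside 0.0357% and 0.256% of all genes. At 1 log2 unit, Krt14 was lower, by 2.06-fold (log2 ratio −1.02), and 1.15% of all genes were. The medians were −0.41 for 4 simple, −0.55 for 3 basal and 0.04 for 3 hair or skin keratins, and −0.01 for all genes. Krt18 stood at −0.51, Krt19 at −0.44, Krt8 at −0.37 and Krt15 at −0.55. Krt80 and Krt7 stood at 0.64 and 0.17. The 3 hair or skin keratins ranged from −0.88 for Krt4, which went from 16.2 to 8.38 counts, to 0.26 for Krt10. The difference in counts was larger than its model SD for 3 of 12 keratins, namely Krt14, Krt15 and Krt80, beside 6.57% of all genes with the minimum. Seminal vesicle RNA differed between the same conditions (above). The 9 smooth muscle and connective tissue genes had a median of −0.63, although 4 of them (Col1a1, Col1a2, Col3a1 and Dcn) were above 0 and their sum went from 48611 to 53091 counts. The part of these lists in the keratin values was not tested.

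In FVB/N, 0 of 16 keratins were called in either direction, beside 0.662% of all genes higher and 0.0182% lower. At 1 log2 unit, Krt4 and Krt79 were lower in FVB.D300.F1, beside 0.619% of all genes. Krt4 went from 156 to 50.0 counts, 3.13-fold lower (log2 ratio −1.63), with a difference of 106 counts and a model SD of that difference of 46.1. Krt79 stood at −1.20 and Krt19 at −0.85, and these 3 were the keratins whose difference was larger than its model SD, as it was for 5.65% of all genes. All 6 hair or skin keratins with the minimum had lower values in FVB.D300.F1 (median −0.58), 4 of 5 simple keratins were lower (median −0.20) and all 3 basal keratins were higher (median 0.16), while the median of all genes was 0.00. Krt78, Krt79 and the simple Krt20 reached the minimum only in FVB.CTL.F1, so their lower values followed from the filter. Krt4, Krt10, Krt32 and Krt35, with 10 counts in both conditions, stood at −1.63, −0.10, −0.43 and −0.73. The epididymal genes were far more abundant in the exposed FVB/N condition (above), and all 9 smooth muscle and connective tissue genes were lower there (median −0.49). Whether either bears on these ratios was not tested.

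The ratio of DEHP to vehicle was then compared between the strains. The largest difference in favour of FVB/N was for Krt14, at 0.16 in FVB/N and −1.02 in C57BL/6J, a gap of 1.18 log2 units. Krt79 had the largest gap in the other direction, −1.46, but rested on 2.52 and 3.23 counts in C57BL/6J. Of 16 keratins, 0 had a gap of 2 log2 units and 2 (12.5%) one of 1 log2 unit, beside 1.22% and 7.38% of 17556 genes. None of these gaps could be tested.

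In the second generation, which had no vehicle condition, Krt4 was the keratin that was called. C57.D300.F2 exceeded C57.CTL.F1 by 6.57-fold (log2 ratio 2.64), from 16.2 to 107 counts. Of 14 keratins, 1 was higher by 2 log2 units and 0 were lower, beside 0.584% of all genes higher and 3.61% lower. Lowering the threshold to 1 log2 unit added no keratin among the higher ones, where 4.1% of all genes were. The medians were −0.16 for simple, 0.06 for basal and 0.35 for hair or skin keratins, and −0.04 for all genes. Krt17 and Krt35 reached the minimum only in C57.D300.F2, so they could only be higher there. The simple median took the opposite sign after scaling all conditions to the same total (0.15) or by upper quartiles (0.07), scalings that moved the median of all genes to 0.28 and 0.19.

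Against the exposed first generation, C57.D300.F1, Krt4 was again the keratin called in C57.D300.F2, 12.7-fold higher (log2 ratio 3.52), with 1 of 14 higher and 0 lower beside 0.333% and 3.3% of all genes. At 1 log2 unit Krt17 (1.22) and Krt35 (1.11) joined it, beside 2.69% of all genes. Here 11 of 14 keratins were above 0, with medians of 0.15, 0.61 and 1.11 for simple, basal and hair or skin keratins. Krt4, Krt17 and Krt35 reached the minimum only in C57.D300.F2, so they could only be higher there. The hair or skin keratins Krt32 and Krt10, with 10 counts in both conditions, stood at 0.31 and −0.08. Both contrasts of the second generation run across the library sets. Without a second-generation vehicle condition, generation and exposure history cannot be told apart in them either.

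Between the strains, hair or skin keratins had the highest class median of the vehicle conditions, though the minimum count shaped this set (below). In FVB.CTL.F1, Krt4 was 9.64-fold higher than in C57.CTL.F1 (log2 ratio 3.19) and Krt79 had 15.8 ± 7.0 counts against 2.52 ± 2.0 (log2 ratio 2.25). Thus 2 of 16 keratins were higher by 2 log2 units and 0 lower, beside 1.44% and 8.88% of all genes. At 1 log2 unit 7 of 16 were higher, namely Krt4, Krt79, Krt35 (1.85), Krt78 (1.72), Krt15 (1.20), Krt10 (1.03) and Krt19 (1.02), beside 7.5% of all genes. Medians were 0.17 for 5 simple, 0.73 for 3 basal and 1.79 for 6 hair or skin keratins, and −0.03 for all genes. Krt79, Krt78, Krt35 and the simple Krt20 reached the minimum only in FVB.CTL.F1, so their direction followed from the filter. Krt4, Krt10 and Krt32, with 10 counts in both conditions, stood at 3.19, 1.03 and 0.81. Krt18, at 0.03, and Krt14, at 0.11, hardly differed in value. For 9 of 16 keratins, including all 6 hair or skin keratins with the minimum, the difference was larger than its model SD, beside 41.2% of all genes.

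Between the exposed conditions, Krt4 (2.44, or 5.97-fold) and Krt15 (2.07, or 4.23-fold) were called higher in FVB.D300.F1, which makes 2 of 13 higher and 0 lower beside 2.65% and 7.67% of all genes. With equal totals Krt15 fell just below the threshold, at 1.97. At 1 log2 unit Krt35 (1.33) and Krt14 (1.29) were also higher, where 12% of all genes were, and Krt80 was lower (−1.12), where 19.9% of all genes were. The medians were 0.37 for simple, 1.29 for basal and 1.00 for hair or skin keratins, and −0.07 for all genes, with Krt5 at 1.00. Upper-quartile factors turned the order of the latter classes, with 1.44 for basal and 1.46 for hair or skin keratins. Krt4 and Krt35 reached the minimum only in FVB.D300.F1, so their direction followed from the filter. Krt10 and Krt32, with 10 counts in both conditions, stood at 0.68 and 0.34. The contrasts share conditions, so the columns of the plot of log2 ratios are not independent of each other.

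**Figure D3:**
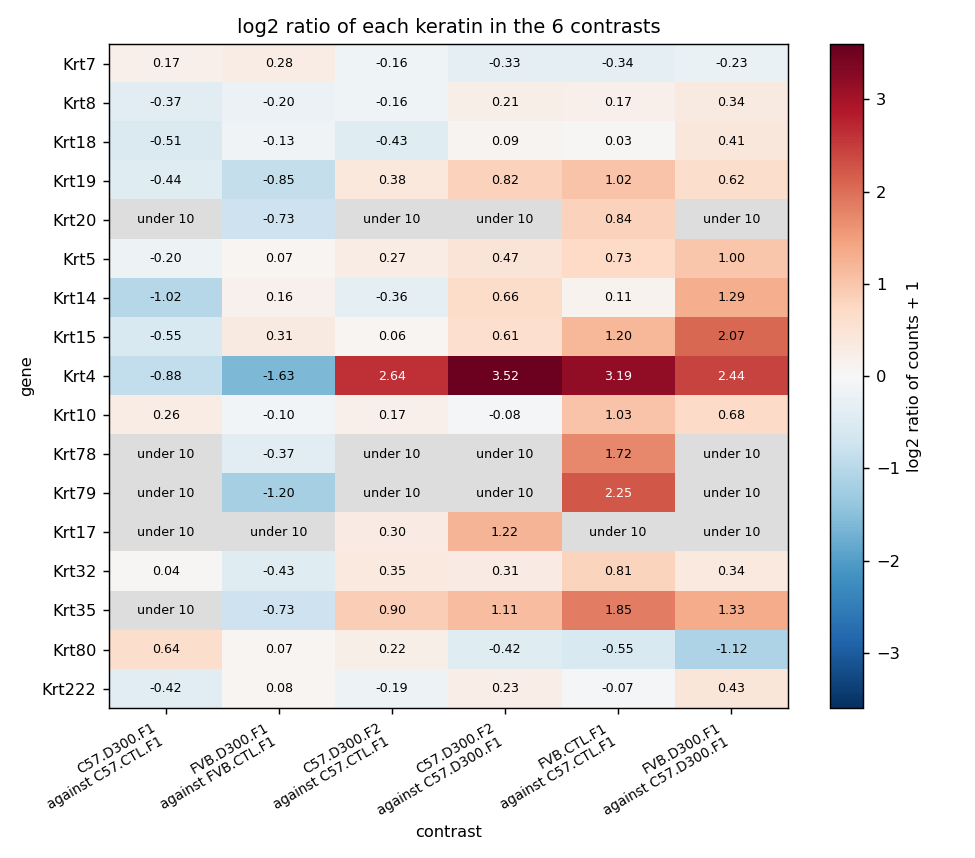
Log2 ratio of counts after adding 1, by colour and number, for the 17 keratins with at least 10 counts in 1 condition (lines) in the 6 contrasts (columns); grey cells had under 10 counts in both conditions. Krt4 holds the highest value of the 4 contrasts that cross the library sets, from 2.44 to 3.52, and Krt8, Krt18 and Krt7 stay between −0.51 and 0.41.

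Ratios between keratins of 1 condition do not depend on scaling between conditions. Krt8 to Krt18 per kb of exon was 0.49, 0.54, 0.59, 0.54 and 0.51, so the main simple pair kept a nearly fixed ratio. Krt19 to Krt18 was 0.58, 0.61, 1.02, 1.16 and 0.71, and Krt19 passed Krt18 in C57.D300.F2 and FVB.CTL.F1. Krt5 to Krt14 was 1.29 in C57.CTL.F1 and between 1.86 and 2.31 elsewhere. Krt15 to Krt14 was 1.78, 2.48, 2.38, 3.80 and 4.21, with both FVB/N conditions highest. No such ratio is given for Krt4, whose usual type I partner Krt13 had at most 1.60 counts, nor for the injury pair Krt6a and Krt16, which had at most 3.11.

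**Figure D4:**
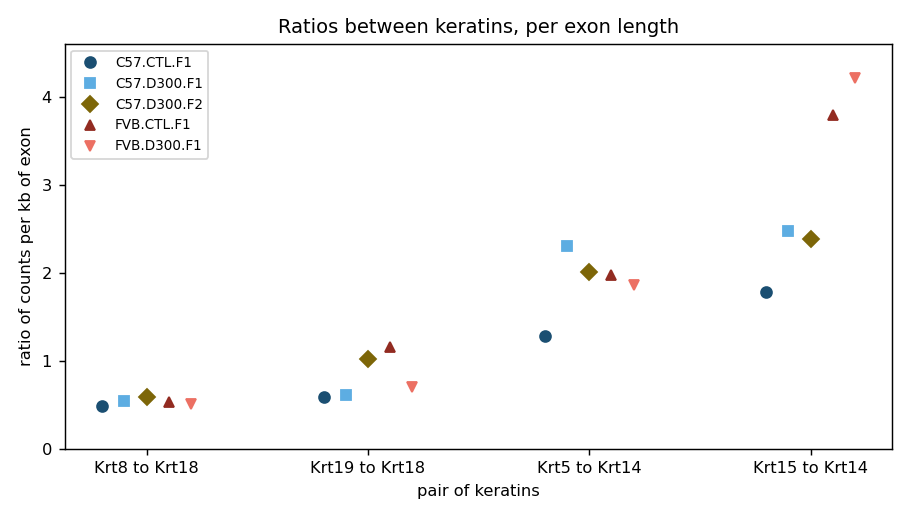
Ratio of counts per kb of exon for 4 pairs of keratins, with 1 point per condition. The ratio of Krt8 to Krt18 stays between 0.49 and 0.59, whereas that of Krt15 to Krt14 goes from 1.78 in C57.CTL.F1 to 4.21 in FVB.D300.F1.

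Genes that work with keratins or mark the same cells were compared from lists. The 19 keratin linkers and desmosome genes, such as Plec, Dst, Dsp and Ppl, which tie filaments to junctions, summed to 11341, 11006, 11054, 12758 and 12335 counts. None of the 14 or 15 members with the minimum was called in any contrast, and their medians lay between −0.04 and 0.21. Within the list, Dsp had 1697, 1560, 1608, 2475 and 2280 counts, and Ppl had 771, 752, 913, 1497 and 1538, so both were higher in the FVB/N conditions, whereas Plec stayed between 2875 and 3219.9.

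Epithelial markers outside the keratins were likewise higher in FVB/N. The 12 genes, led by Epcam, Cdh1, Spint2 and Cldn3, summed to 9740.2, 8908, 12034, 16872 and 17048 counts. All 12 were higher in FVB/N than in C57BL/6J, both after vehicle (median 0.79) and after DEHP (median 0.72). Epcam had 1893, 1414, 2241, 3936 and 4075 counts. The germ cell genes went the other way between the strains, with medians of −2.79 and −2.30. The part of these shifts in the keratin values was not tested.

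The 8 basal cell genes outside the keratins summed to 1504, 1478, 1689, 1676 and 1845 counts. Trp63, the transcription factor of basal cells, had 101, 95.0, 126, 171 and 201 counts, and Itgb4, the integrin of hemidesmosomes, had 198, 176, 257, 454 and 522, both in the order of Krt5. Itga6, the partner of Itgb4, had 368, 376, 246, 274 and 309 counts and did not follow this order. The list's median was 0.66 between the vehicle conditions and 1.01 between the exposed conditions of both strains.

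Genes of skin and hair outside the keratins were scarce. The 14 measured genes summed to 106, 110.5, 142, 159 and 196 counts, 7 reached 10 counts in 1 condition, and 4 (Lor, Sprr1a, Calm4 and S100a3) stayed at or under 3 in all. Lor, the main protein of the cornified envelope, had at most 2.91 counts. The more abundant members were Tchh with 37.9, 37.9, 42.0, 45.4 and 74.3 counts, Sbsn with 34.6, 31.5, 37.2, 50.3 and 44.9, and Padi3 with 2.99, 2.63, 4.27, 25.0 and 35.3. Padi3, an enzyme that modifies hair follicle proteins, was thus low in the C57BL/6J conditions and higher in both FVB/N conditions.

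**Figure D5:**
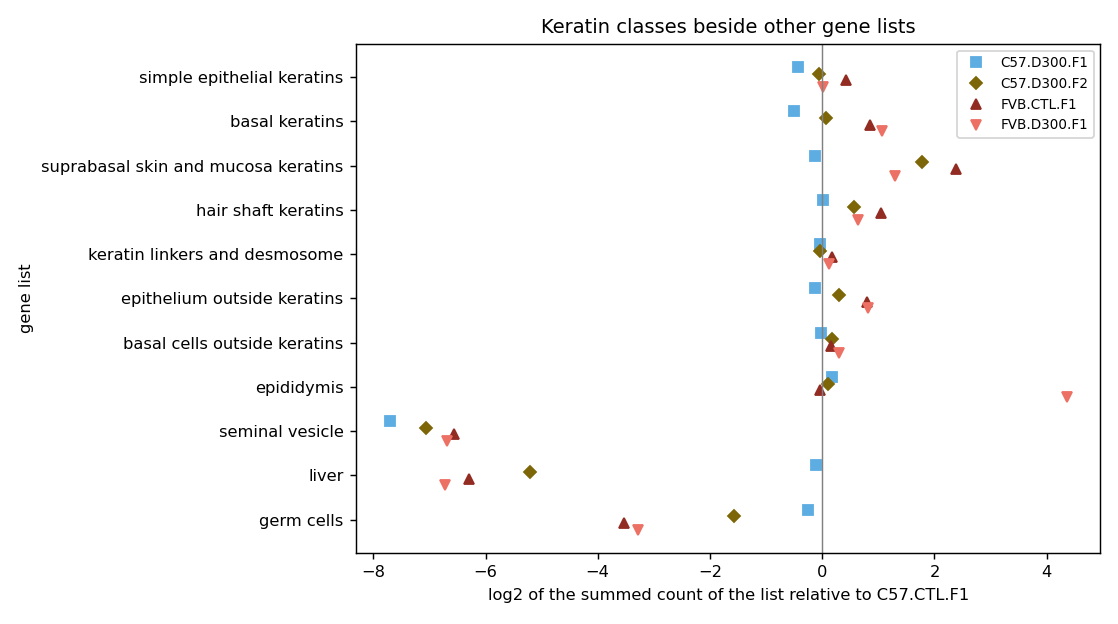
Summed count of each gene list relative to C57.CTL.F1, in log2 units, for the other 4 conditions. Simple keratins stay near C57.CTL.F1, basal keratins are higher in both FVB/N conditions, suprabasal keratins are higher in C57.D300.F2 and both FVB/N conditions, and the germ cell, liver and seminal vesicle lists are lower there.

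The model variance of keratins was like that of other genes of similar count. The model SD divided by the count, set against the median of 200 genes of similar count, was between 0.92 and 1.09 for every keratin with 10 counts in each condition. As both sides come from the same model at similar counts, a value near 1 does not show how keratins vary between mice. Part of the sequence of some keratins occurs in other genes, which could divide their reads. Of all stretches of 30 bases, 32.9% of Krt8 occurred elsewhere, nearly all in the pseudogene Krt8-ps, as did 29.2% of Krt14 (mostly in Krt16), 16.8% of Krt17, 13.4% of Krt5 and 12.4% of Krt18, so these counts are less certain. The shares were 3.97% for Krt15, 1.28% for Krt4 and 0.658% for Krt19. Exons of Krt32, Krt80, Krt10, Krt5, Krt8 and Krt7 overlap a gene on the opposite strand by 77 to 263 bases, and whether counting used the strand is not given in the sources used here.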

How the data were processed

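The 25 libraries of sperm RNA, 5 per condition, were made with the all-RNA-seq protocol. The authors clipped the adapter, aligned reads to mm10 with TopHat under a strand-specific setting and quantified genes with Cuffdiff, whose options and gene annotation are not given in the sources used here. Each deposited value is a signal: the count of fragments that Cuffdiff estimated for a gene from all 5 libraries of a condition, scaled between libraries and not divided by length. The deposited variance of each count follows Cuffdiff's model, and its square root is the model SD. All 10 columns of counts and variances were used, and the conditions were grouped by the labels.

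Log2 ratios were taken after adding 1, genes with under 10 counts in both conditions were left out, and a ratio of 2 log2 units was called. The same rule over all genes is the background. The rule was tested on simulated data with counting error alone and large changes planted in genes well above the minimum count. That simulation does not cover spread between mice, or changes in genes near the minimum count. No test was run because 1 value per condition leaves no replicate error, and model SDs and the limit of 3 counts for a count of 0 are not spread between mice. Lengths and positions were from GENCODE (GRCm38) and promoters from RefSeq. Scripts ran in Python 3.11.15 with numpy 2.4.6 and pandas 2.3.3.

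All keratins with 10 counts in 1 condition were named, with at most 4 examples of each other list by mean count. Krt1, Krt6a, Krt13, Krt16 and Krt85 were named as partners in listed pairs. The members, lists and threshold were chosen with earlier results of these data known. Alternatives were other scalings between conditions, other added values, minimum counts, thresholds and lengths, low values set to 3 counts and a limit by the model SD. Krt85 had no single position in the annotation. Tables of single libraries were not used here.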

Additional observations from a re-analysis of the deposited data

How the results depend on the processing

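An added constant keeps the sign of a ratio, and the scale factors lay only between 0.887 and 1.10, so a call of 2 log2 units could not reverse. No called value changed sign under any alternative. Of values that were not called, 2 of 124 list medians and 14 of 510 single log2 ratios did: the median of simple keratins went from −0.16 to 0.15 with equal totals and 0.07 with upper quartiles for the second generation against vehicle, and the single ratios, of 9 gene and contrast pairs, were at most 0.19 in size. Counts of called keratins stayed within the limit of 1.5-fold in 97 of 108 recalculations, list medians moved by less than 0.5 log2 units in 118, and single log2 ratios in 494, where all 16 that moved did so with 10 added to each count. Contrasts with 0 called keratins that stayed at 0 are among the 97. With a threshold of 1 log2 unit, the keratins called were 1 lower for DEHP in C57BL/6J, 2 lower for DEHP in FVB/N, 3 higher in the second C57BL/6J generation than in the exposed first, 7 higher in FVB/N between the vehicle conditions, and 4 higher and 1 lower in FVB/N between the exposed conditions. With 10 added, 1 keratin was called higher between the vehicle conditions of both strains and 0 between the exposed ones, and the median of hair or skin keratins was 0.53 for the second against the exposed first generation and 0.92 between the vehicle conditions. With equal totals, 1 keratin was called higher between the exposed conditions. With at least 100 counts, 1 was called in each contrast of the strains, and hair or skin keratins were Krt4 alone, at −1.63 for DEHP in FVB/N, 2.64 and 3.52 for the second generation against the vehicle and exposed first generation, and 3.19 between the vehicle conditions, whereas the other 2 contrasts had no member. Equal totals moved the median of all genes by over 0.1 log2 units in some contrasts, to 0.28 for the second generation against vehicle and −0.17 between the exposed strains. The per-length level moved for Krt7, Krt79 and Krt80 with the longest transcript. Keratins under 10 counts are limited by depth. No paired analysis was possible because the table holds 1 value per condition, and for the same reason no library could be left out.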
